A study of Drosophila melanogaster with 2 samples.

Results

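Chromatin immunoprecipitation with sequencing (ChIP-seq) against the protein CG1620 gave 256 peaks on the X chromosome of Drosophila melanogaster whose summit, the position of highest signal, lay more than 500 bp from every annotated transcription start site (TSS). They were chosen by position alone from the optimal set that the authors kept by the irreproducible discovery rate (IDR), a procedure that sets from the ranks in replicates how many peaks to keep. The set held 846 peaks on the X chromosome, 3021 on the autosomal arms and 27 on chromosome 4, and 934 of all these lay away from promoters. These were compared with 671 peaks of the same distance range on the autosomal arms 2L, 2R, 3L and 3R; chromosome 4 had 7 and was left out of the comparison. The flies were adult females of 1 transgenic line that carries CG1620 with green fluorescent protein (eGFP) fused to its C-terminus, and chromatin sonicated to fragments of 200 to 800 bp was precipitated with an antibody to GFP. Their age is given as unknown, and there was 1 group with 2 biological replicates, numbered 2 and 3, each from its own biosample. Whole animals were used, so a peak cannot be assigned to a tissue, and the tagged protein comes from a transgene of a single line. The value of a peak is the authors' signal, a score without unit that is not scaled between lists, and the depth of sequencing is unknown, as no read counts come with the lists.

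Female flies carry a pair of X chromosomes, and the dosage compensation complex with its roX RNAs, which raises transcription of the single male X, is normally not assembled in them. Away from promoters, transcription factors bind mainly to enhancers, silencers and insulators, many of which lie in introns of the genes they act on. A ChIP-seq peak shows that a chromatin fragment was recovered with the protein, whether the protein touched the DNA itself or another bound protein.

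The sequences around 12 summits show the range of these sites. Each is the summit base with 50 bases on either side, from the RefSeq release 6 (dm6) genome, plus strand, and none overlaps an annotated exon. The first 4 are the strongest intronic sites, with capitals for any of the 5 words of 6 letters that were most common in the X peaks relative to the chromosome. These words, read on either strand, are ACAGTG, then AACAGT, then CAGTGG, then GTTTCA, and last AACTGT. They are CG32772 at chrX:4910320-4910420, Tlk at chrX:3742179-3742279, norpA at chrX:4324944-4325044 and CHES-1-like at chrX:7698356-7698456.
CG32772: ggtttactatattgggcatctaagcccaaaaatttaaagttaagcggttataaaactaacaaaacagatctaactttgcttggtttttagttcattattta
Tlk: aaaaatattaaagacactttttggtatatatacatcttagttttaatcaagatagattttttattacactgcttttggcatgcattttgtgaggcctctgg
norpA: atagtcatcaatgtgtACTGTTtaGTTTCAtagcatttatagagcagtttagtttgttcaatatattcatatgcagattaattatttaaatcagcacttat
CHES-1-like: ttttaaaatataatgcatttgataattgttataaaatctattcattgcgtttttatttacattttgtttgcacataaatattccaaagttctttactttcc

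The next 4 hold the letters AGGTGGCG, a core of the motif of the insulator protein CTCF, in capitals on either strand. They lie near sbr (chrX:10832502-10832602), in CG43658 (chrX:17531939-17532039), near His3.3B (chrX:9152189-9152289) and in lncRNA:CR44357 (chrX:7242059-7242159).
near sbr: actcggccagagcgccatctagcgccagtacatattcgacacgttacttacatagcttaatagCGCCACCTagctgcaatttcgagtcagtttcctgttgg
CG43658: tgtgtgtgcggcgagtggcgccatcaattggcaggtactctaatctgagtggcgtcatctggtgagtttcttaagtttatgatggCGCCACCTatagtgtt
near His3.3B: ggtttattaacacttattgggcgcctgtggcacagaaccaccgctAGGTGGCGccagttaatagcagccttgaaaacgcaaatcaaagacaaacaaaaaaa
lncRNA:CR44357: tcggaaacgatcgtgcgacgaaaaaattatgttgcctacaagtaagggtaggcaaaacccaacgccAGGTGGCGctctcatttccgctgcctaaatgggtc

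The last 4 hold the word ACAGTGG followed after 3 free bases by CTC, in capitals on either strand, a pattern chosen after the common words had been seen. They lie near lncRNA:CR44619 (chrX:12755250-12755350), in CG8034 (chrX:19289493-19289593), in mnb (chrX:17881334-17881434) and in trol (chrX:2534022-2534122).
near lncRNA:CR44619: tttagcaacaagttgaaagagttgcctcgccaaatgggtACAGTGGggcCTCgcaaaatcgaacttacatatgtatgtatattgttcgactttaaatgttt
CG8034: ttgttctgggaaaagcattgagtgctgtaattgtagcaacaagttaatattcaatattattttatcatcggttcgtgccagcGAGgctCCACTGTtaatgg
mnb: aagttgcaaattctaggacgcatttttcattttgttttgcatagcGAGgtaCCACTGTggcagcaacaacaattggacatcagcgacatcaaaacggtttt
trol: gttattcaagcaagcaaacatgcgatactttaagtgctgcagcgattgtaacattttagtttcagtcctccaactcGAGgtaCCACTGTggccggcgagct

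The X chromosome held more peaks away from promoters than its length of such sequence gives. It carried 27.6% of the 927 peaks on the X and the autosomal arms (95% Clopper-Pearson interval 24.8 to 30.6%), against 18.0% of the positions more than 500 bp from a TSS. That is 12.4 peaks per Mb of such sequence on the X (exact Poisson interval 10.9 to 14.0), against 7.63 on 2L, 7.07 on 2R, 6.72 on 3L and 7.18 on 3R. The interval of the X overlapped none of those of the 4 arms, whose highest upper end was 8.94. The density was thus 1.74 times that of the autosomal arms (interval 1.5 to 2.01). All intervals treat peaks as independent and cover counting error only, not the spread between flies.

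**Figure D1:**
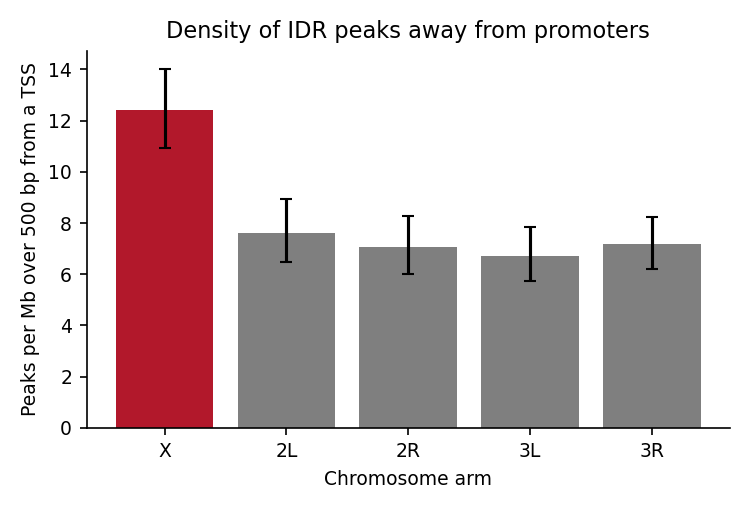
Peaks of the IDR set more than 500 bp from a TSS, per Mb of sequence at that distance (vertical axis), on the X chromosome and the 4 autosomal arms. Bars give the density and lines the exact Poisson interval; the X stands at 12.4 and the autosomal arms between 6.72 and 7.63.

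The excess was larger away from promoters than at them. Within 500 bp of a TSS the density ratio of X to autosomes was 1.28 (interval 1.17 to 1.40). Of the X peaks of the IDR set 30.3% lay away from promoters, against 22.2% of the autosomal ones, a difference of 8.05 percentage points (Newcombe interval 4.69 to 11.5). The ratio was 1.62 (1.22 to 2.11) from 500 to 1000 bp, 1.60 (1.18 to 2.15) from 1000 to 2000 bp and 2.34 (1.76 to 3.08) from 2000 to 5000 bp. Beyond that the intervals included 1, with 28 X peaks from 5000 to 10000 bp (1.5, 0.94 to 2.34) and 13 over 10000 bp (1.48, 0.73 to 2.81). The range from 2000 to 5000 bp held 31.6% of the X peaks and 22.5% of the autosomal ones, a difference of 9.14 points (2.81 to 15.8). The median distance to a TSS was 1937 bp on the X and 1502 bp on the autosomes.

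**Figure D2:**
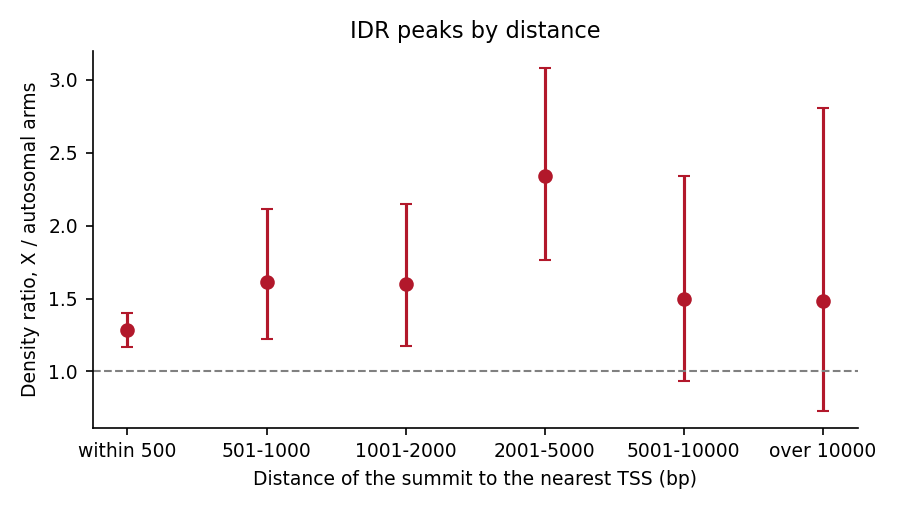
Density of IDR peaks on the X chromosome divided by that on the autosomal arms (vertical axis), by distance of the summit to the nearest TSS in bp. Points give the ratio and lines its 95% interval; the dashed line marks 1, and the ratio is highest from 2000 to 5000 bp, at 2.34.

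The excess was found among strong peaks and was smaller among weaker candidates. Each list holds 30000 candidates, which run down into background, and among the pooled candidates away from promoters the ratio was 1.74 for the strongest, which make up the IDR set, 1.27 for ranks 3895 to 10000 and 1.12 for ranks 10001 to 15000. It was 1.10 at ranks 15001 to 20000, 1.05 at 20001 to 25000 and 1.00 at 25001 to 30000 (interval 0.92 to 1.09), where 18.0% of the candidates lay on the X. Each replicate alone gave a similar series: as many of the strongest stood at 1.71 in replicate 2 and 1.59 in replicate 3. The weakest stood at 1.11 in replicate 2 (1.03 to 1.20) and 0.998 in replicate 3 (0.92 to 1.08), so a small excess was left among the weakest candidates of replicate 2.

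**Figure D3:**
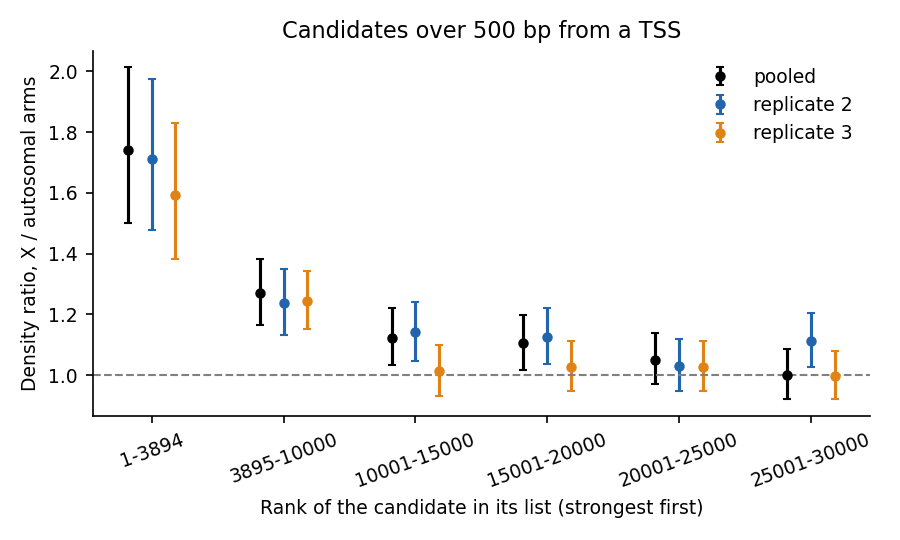
Density of candidates more than 500 bp from a TSS on the X divided by that on the autosomal arms (vertical axis), by rank in the pooled list and in each replicate's list. Points give the ratio and lines its 95% interval; the pooled ratio is 1.74 for the strongest candidates and 1.00 for the weakest.

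Most X peaks lay in introns, above all in first introns. Introns and non-coding exons held 201 of the 256, or 78.5%, against 70.6% of the autosomal peaks, a difference of 7.87 points (1.51 to 13.7). Such sequence also makes up more of the X, 50.2% of its positions over 500 bp from a TSS against 45.6% on the autosomes. First introns held 147 X peaks, 57.4%, and 54.2% of the autosomal peaks, a difference of 3.17 points (-4.0 to 10.2), while first introns are 23.7% of those X positions. Later introns held 50 (19.5%), against 14.2% on the autosomes, a difference of 5.37 points (0.14 to 11.2). Both shares lie below that of the sequence, as later introns are 25.8% of such X positions and 25.7% of the autosomal ones. Intergenic sequence held 33 (12.9%) on the X and 22.8% on the autosomes, a difference of -9.91 points (-14.8 to -4.36). Set against the sequence of each class, introns gave a density ratio of 1.76 (1.48 to 2.08) and intergenic sequence 1.25 (0.83 to 1.83). There were 10 summits in 3' untranslated regions, 8 in 5' untranslated regions and 4 in coding sequence, in bif, CG33181, Ubr1 and CG2694.

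The 3 strongest X peaks stood far above the rest in both replicates. The strongest was in the first intron of CG32772, 1268 bp from the TSS, with a pooled signal of 1232, 907 in replicate 2 (rank 7) and 331 in replicate 3 (rank 6). A second summit 199 bp away had a pooled signal of 100.5 and overlapped the same candidate in each replicate, so the replicates list 1 site there. Tlk, which encodes a kinase that acts in chromatin assembly, had a first-intron peak with a pooled signal of 1230, 951 in replicate 2 (rank 5) and 282 in replicate 3 (rank 14). norpA encodes the phospholipase C of phototransduction, and its first-intron peak had 961 pooled, 699 in replicate 2 (rank 13) and 272 in replicate 3 (rank 15). The next was CHES-1-like, a forkhead factor gene, at 488, so these 3 lie apart from the other X peaks away from promoters. The strongest X promoter peak had 2151. The strongest autosomal peak away from promoters had 1268.

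The other 8 of the 12 strongest had pooled signals of 352 to 425. The peak in the 3' untranslated region of stas had 425 pooled, 327 in replicate 2 and 96.9 in replicate 3. LPCAT, a phospholipid acyltransferase gene, had 418 pooled, 308 in replicate 2 and 112 in replicate 3. The peak in an exon of lncRNA:CR44619 had 409 pooled, 282 in replicate 2 and 123 in replicate 3. All of these ranked among the 221 strongest candidates of each replicate. A second peak in CHES-1-like had 398 pooled, 299 in replicate 2 and 100.3 in replicate 3. Zw, the glucose-6-phosphate dehydrogenase gene, had 383 pooled, 277 in replicate 2 and 97.6 in replicate 3. Tob, an antiproliferative gene, had 375 pooled, 257 in replicate 2 and 116 in replicate 3. Pp2C1, a protein phosphatase gene, had 372 pooled, 262 in replicate 2 and 107 in replicate 3, and a second Tlk peak had 352 pooled, 270 in replicate 2 and 74.1 in replicate 3. The second Tlk peak had the lowest rank of the 12 in replicate 3, at 445. Apart from stas and lncRNA:CR44619, all 12 lay in first introns.

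Across the 247 X peaks with a candidate in both replicates, Spearman's rho between replicate signals was 0.709, against 0.564 across 646 autosomal peaks; peaks share libraries and are not independent, so no p is given. Counting each replicate candidate once, rho was 0.730 over 241 X peaks and 0.559 over 633 autosomal ones. The median pooled signal was 110 on the X (interval 100.6 to 123) and 103 on the autosomes (98.8 to 106). In replicate 2 it was 83.0 on the X (76.2 to 88.6) and 76.5 on the autosomes (73.5 to 79.6), intervals that overlap. In replicate 3 it was 31.0 on the X (27.8 to 34.2) and 26.1 on the autosomes (24.9 to 27.6), intervals that do not. Only peaks above the weakest kept signal of 70.0 entered, so these medians describe the strong end alone. The IDR set was sized by ranks in these same replicates, so rho describes selected peaks and is no independent measure of agreement.

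**Figure D4:**
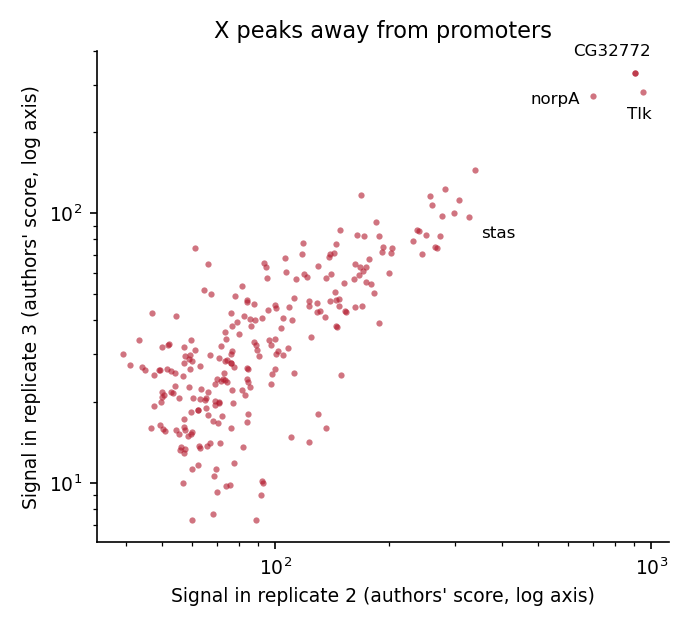
Signal in replicate 2 (horizontal) and replicate 3 (vertical) of the X peaks with a candidate in both, as authors' scores on log axes. CG32772, Tlk and norpA lie above 690 in replicate 2 and 270 in replicate 3; the CG32772 point stands for a pair of peaks that share a candidate.

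In all 9 X peaks lacked a candidate in 1 replicate. The strongest were in CHES-1-like (106 pooled, 103 in replicate 2) and tay (105 pooled, 102 in replicate 2), both without an overlapping candidate in replicate 3. The weaker of a pair of peaks in mnb, a kinase gene, whose sequence is printed above, had a signal of 94.95 in the pooled list and 41.9 in replicate 3 and was the 1 X peak without a candidate in replicate 2. The share of peaks with a candidate in both replicates is likewise no independent support, since the set was kept by their ranks. Both replicates had a candidate for 96.5% of X peaks and 96.3% of autosomal peaks, a difference of 0.21 points (-3.04 to 2.59) at an overlap of 50% of either peak. At 50% of both peaks the direction turned, to 85.9% of X peaks and 91.4% of autosomal peaks, a difference of -5.42 points (-10.6 to -1.0).

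The X peaks lay close to each other. Another peak away from promoters stood within 10000 bp for 54.3% of X peaks and 42.2% of autosomal peaks, a difference of 12.1 points (4.93 to 19.2), and the median distance to the next was 9175 bp on the X and 19074 bp on the autosomes. Higher density brings peaks closer, and its part in this was not tested. Merging summits within 10000 bp left 168 sites on the X, of which the largest held 11 summits over 20149 bp in and beside CHES-1-like, at chrX:7690814-7710963. Its members ranged from 80.6 to 488. The Mb from 7 to 8 held 27 peaks (30.5 per Mb), the most on the chromosome, while the stretch from 22 Mb to the end of the assembly held none of them and 4 promoter peaks. That stretch has 108 TSS positions, and 1.46 Mb of its sequence lies more than 500 bp from any TSS. Sequence marked as repeat in the genome (soft-masked) made up 27.3% from 22 to 23 Mb and 42.4% beyond, against 21.0% of the whole X. It made up 28.0% from 21 to 22 Mb, where 5 peaks lay. The part of repeats in the lack of peaks was not tested.

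CHES-1-like held 10 of the 256 peaks and had a promoter peak of 381. lncRNA:CR44357 held 7 and the overlapping CG1677 6 of them, Tlk held 6, and Hr4, a nuclear receptor gene of the ecdysone response, and Smr, a corepressor gene, held 5 each. Raf, the kinase that activates MEK, Mnt, an antagonist of Myc, and gce, a juvenile hormone receptor gene, held 4 each. Neither Hr4, Smr nor norpA had a promoter peak in the IDR set. A pair of the gce summits lies 199 bp apart and shares 1 candidate in replicate 3. The peaks farthest from a TSS lay in mgl (38454 bp, signal 125), Drak (24768 bp, 74.8) and Hr4 (21987 bp, 278). The strongest intergenic peaks were nearest to RpS15Aa (322), to Myc and lncRNA:CR44999 (270), and to sbr (245).

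Of 2196 protein-coding genes on the X, 145 (6.6%, interval 5.60 to 7.72%) held such a peak in their span, against 393 of 11669 autosomal genes (3.37%), a difference of 3.24 points (2.21 to 4.39). The X genes that held one had a median length of 16779 bp, against 2341 bp for the other X genes. Within classes of length the share was higher on the X in each class above 2000 bp. It was 3.00% of X genes and 1.16% of autosomal genes from 2000 to 5000 bp, and 10.4% of X genes and 6.51% of autosomal genes from 5000 to 10000 bp. From 10000 to 30000 bp it was 22.5% of X genes and 15.3% of autosomal genes, and above 30000 bp 32.0% of X genes and 21.7% of autosomal genes. The interval of each of these 4 differences excluded 0. It was also higher among genes with a promoter peak (14.1% on the X, 8.41% on the autosomes) and among those without (3.34% on the X, 1.64% on the autosomes).

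**Figure D5:**
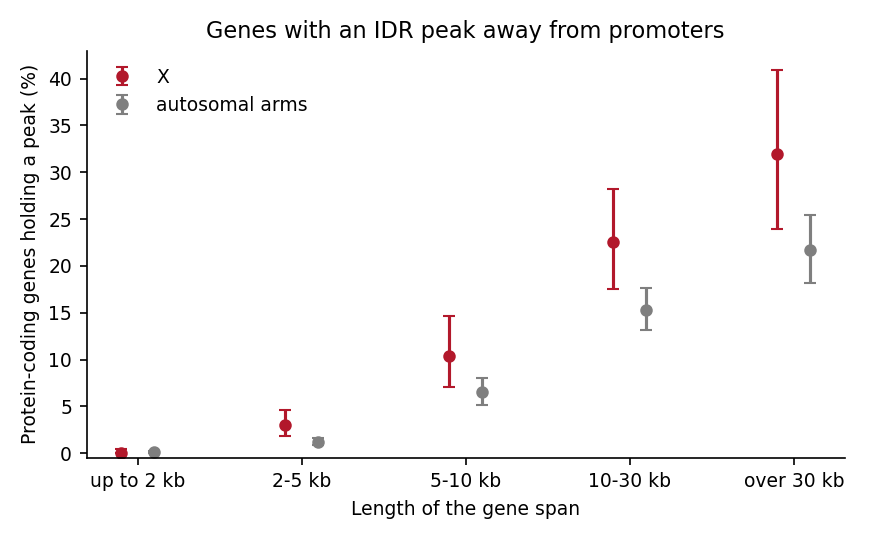
Share of protein-coding genes whose span holds an IDR peak more than 500 bp from a TSS (vertical axis, percent), by length of the gene, on the X and on the autosomal arms. Points give the share and lines its exact binomial interval; above 30000 bp it is 32.0% on the X and 21.7% on the autosomal arms.

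The gene that holds the peak, or the nearest one for intergenic summits, had a promoter peak for 66.8% of X peaks and 56.0% of autosomal peaks, a difference of 10.8 points (3.72 to 17.4). For summits inside genes alone the share was 69.1% on the X and 66.8% on the autosomes, a difference of 2.26 points (-5.20 to 9.32). The first difference lost its interval above 0 with promoters drawn to 1000 bp (7.54, -0.89 to 15.5).

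Named groups of X genes, listed with earlier results of these data known, are set here beside the 6.6% of all X protein-coding genes. Of 32 genes listed as transcription factor and chromatin genes, 11 held a peak. The list also took in elav and fne, which encode RNA-binding proteins. The 11 included elav (314), Smr (253), CrebB, a cAMP response factor (234), bbx (229), mamo (201), br, an ecdysone response factor (132), and the Polycomb gene ph-p (131). The median length of the 32 was 17285 bp. Of 20 signalling genes 5 held one (Tlk, norpA, Raf, the adenylyl cyclase gene rut at 135 and sgg at 74.5), with a median length of 9151 bp. Neuronal excitability and adhesion genes had 4 of 16 (kirre at 201, dlg1 at 152, Nrg at 101.3 and Fas2 at 89.5), at a median length of 54161 bp. The peak given for elav also lies in arg and lncRNA:enrr, and that for bbx also lies in waw. The peak given for kirre also lies in CG32795, and that for br also lies in Mur2B. For kirre and br the nearest TSS is that of the other gene, CG32795 or Mur2B. Metabolic genes had 3 of 12: Zw (383), Pgd (186) and the glutamine synthetase gene Gs2 (129). Oogenesis and eggshell genes had 0 of 16, at a median length of 2263 bp. The lists differ in gene length, which moves with the share of genes holding a peak, and its part was not tested.

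Of 4 dosage compensation landmarks on the X, Sxl, the switch gene of sex determination, held a peak of 324 in an intron, 1311 bp from a TSS. roX1, the RNA gene at which the male complex assembles, had 4 candidates within 1000 bp, the strongest at 39.5 and rank 8526, outside the IDR set. roX2 had 3, and its strongest, at 77.2, was a promoter peak 269 bp from the TSS of nod and so no part of the 256. That signal is near the weakest kept, 70.0, and the peak's candidate ranked 3093 in replicate 2 but 9049 in replicate 3. The remaining landmark, mof, held no peak away from promoters and had no promoter peak in the IDR set.

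The X peaks were poor in G and C, with a median of 37.6% within 50 bases of the summit, against 38.6% in the autosomal peaks; windows of that length across either set of chromosomes had 42.6%. The windows, here and for the motifs and words below, were not matched to the peaks by annotation class. Coding sequence made up 16.1% of X positions over 500 bp from a TSS and 1.56% of X peaks, and its part was not tested. Of 16 motifs read on both strands, AGGTGGCG stood farthest above the chromosome. It was in 7 X peaks, 2.73%, and in 2.38% of autosomal peaks, against 0.274% of X windows and 0.223% of autosomal windows. The difference between X and autosomal peaks was 0.35 points (-1.67 to 3.30). The promoter motif TATCGATA was in 1 X peak (0.391%) and in 0.745% of autosomal peaks, against 6.78% of X promoter peaks, and CGATA, which it contains, in 9.77% of X peaks and 14.2% of autosomal peaks, against 32.4% of X promoter peaks.

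Repeats of 2 letters did not set the X peaks apart in one direction. GAGAGAGA was in 1.17% of X peaks and 1.49% of autosomal peaks, against 0.732% of X windows and 0.481% of autosomal windows. CACACACA was in 1.95% of X peaks and 1.94% of autosomal peaks, against 2.97% of X windows and 1.89% of autosomal windows. The shorter GAGAG was in 10.2% of X peaks and 15.2% of autosomal peaks, against 11.4% of X windows and 11.4% of autosomal windows. The difference between X and autosomal peaks was -5.04 points (-9.32 to -0.05). That difference was 0.18 in windows of 25 bp on either side, and its interval included 0 under every other alternative except the restriction to the stronger peaks (-2.98 with replicate 2 alone, -0.73 with replicate 3 alone). TATATATA was in 2.73% of X peaks and 0.298% of autosomal peaks, a difference of 2.44 points (0.83 to 5.25), against 2.19% of X windows and 1.33% of autosomal windows; its interval included 0 among the stronger peaks of the set, those above its median signal, with replicate 2 alone (1.35), with replicate 3 alone (1.19) and in narrower or wider windows. AACCCCC was in 0 of 256 X peaks (Clopper-Pearson upper end 1.43%) and in 8 autosomal peaks (1.19%), against 0.978% of X windows. The difference of -1.19 points had an interval of -2.33 to 0.40, so none was detectable at this number of peaks. The other 8 motifs differed by -3.27 to 0.24 points, with intervals that included 0. The lowest of these, for GCCAT, became -7.52 (-13.2 to -0.96) for summits over 1000 bp from a TSS.

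Words of 6 letters gave a further description, with no test, since 2080 were counted. Of those in at least 10% of X peaks, ACAGTG stood highest above the chromosome, in 12.9% of X peaks and 8.49% of autosomal peaks, against 3.84% of X windows and 3.67% of autosomal windows. GTTTCA was in 13.3% of X peaks and 5.66% of autosomal peaks, against 5.58% of X windows and 5.69% of autosomal windows. The longer ACAGTGG was in 7.42% of X peaks and 4.47% of autosomal peaks, against 1.25% of X windows and 1.14% of autosomal windows, a difference of 2.95 points (-0.25 to 7.05). With CTC after 3 further bases it was in 6 X peaks (2.34%) and 2 autosomal peaks (0.298%), against 0.0422% of X windows, 0.0304% of autosomal windows and 0 of 590 X promoter peaks. The sequences printed above for lncRNA:CR44619, CG8034, mnb and trol are 4 of these 6. ACAGTGG and its form with CTC were chosen after the words had been ranked in these same X peaks. Their comparisons with autosomal and promoter peaks, and the interval, are therefore a description and no test. Of the 4 strongest intronic sites only norpA has any of the common words in its window.

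At the distance threshold, the X peaks just inside it were those of lncRNA:CR44619 (503 bp, signal 409), Fim (507 bp, 211) and tay (510 bp, 105), and just outside it lay Ypel (498 bp, 97.7), D2hgdh (497 bp, 140) and Rhp (488 bp, 83.7). The strongest X candidates of that distance below the IDR set were nearest to NFAT, hep and Sik2, at ranks 3900, 3902 and 3906.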

How the data were processed

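The authors deposited peak lists on dm6: per the file headers and accompanying notes, 30000 candidates for each replicate and for the pooled data, and the optimal IDR set, which equals the strongest candidates of the pooled list. The deposited value is a signal relative to 1 control; the aligner, peak caller and IDR threshold are not given in the sources used. The dm3 lists were not used here. TSSs were the 5′ ends of transcripts of 17896 genes (Ensembl release 115, 23307 positions), leaving out pseudogenes and transposable elements. Summits were placed first in coding sequence, then in a 5′ or 3′ UTR, then in introns and non-coding exons, and otherwise called intergenic. A replicate candidate had to overlap by at least 50% of either peak. Shares have exact binomial (Clopper-Pearson) intervals, differences Newcombe intervals, densities exact Poisson intervals and medians order-statistic intervals, all at 95%; no p-value was computed, and a difference is called where its interval excludes 0. Motif windows reach 50 bp on either side of a summit. The lists hold no read counts, so depth is unknown. The named genes are the 12 strongest peaks, X genes with several peaks, the leaders of each class, those farthest from a TSS, those at the thresholds, those lacking a replicate candidate and those of the gene lists. The peaks, lists, motifs and alternatives were chosen with earlier results of these data known. The analysis used Python 3.11.15, numpy 2.4.6, pandas 2.3.3, scipy 1.17.1, statsmodels 0.14.6 and matplotlib 3.10.9, and its functions were tested on simulated data.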

Additional observations from a re-analysis of the deposited data

How the results depend on the processing

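The X share of peaks away from promoters stayed above its background under all 12 alternatives tried, between 25.1% with peaks within 10000 bp counted once and 31.5% among the stronger peaks, those above the median signal of the IDR set, and the intron difference stayed above 0 under all 5. The promoter-peak difference fell to 7.54 points with the distance at 1000 bp. The ratio of median signals, 1.07, was 1.20 among the stronger peaks, and 1.11 and 1.19 with replicate 2 or replicate 3 alone. The 145 X genes holding a peak became 84 among the stronger peaks, which are fewer. Requiring 50% of both peaks turned the difference in replicate candidates to -5.42 points (-10.6 to -1.0; 85.9% on the X, 91.4% on the autosomes); the cause was not tested. The interval came to exclude 0 for GCCAT at 1000 bp (-7.52, -13.2 to -0.96) and for CGATA with replicate 2 alone (-4.72, -8.50 to -0.22). Some motif differences changed sign, with an interval under that alternative that includes 0; GAGAG alone of these was called in the report. The cause was not tested. With the distance at 250 bp these were GAGAGAGA 0.20, CACACACA -0.76 and GGTCACAC -0.041. At 1000 bp they were CACACACA -1.24, GGTCACAC -0.22, CACGTG 0.30 and ATTCGC 1.59. Among the stronger peaks they were TATCGATA 0.069, CAGCTG 2.29, GCCAT 1.27, AGATAA 1.47 and AGGTGGCG -0.57. Left with replicate 3 or replicate 2 alone, the difference was -0.29 or 0.19 for GAGAGAGA, 0.22 or -0.24 for CAGGTAG, -1.04 or 0.29 for CACGTG, -1.87 or 0.68 for AGATAA and 0.65 or -1.49 for ATTCGC, and 0.53 for CAGCTG with replicate 2. Within 25 bp they were GAGAGAGA 0.43, GAGAG 0.18, CACACACA -0.21, AGATAA 0.83 and ATTCGC 0.56, and within 100 bp GAGAGAGA 0.031, CACACACA -1.33, TATCGATA 1.06, CACGTG 0.50, AGGTGGCG -0.30 and ATTCGC 0.79. No paired analysis was possible because the samples form 1 group. The number of peaks limits all shares, and unknown depth leaves single signals without an error.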
